A study of Rattus norvegicus with 2 samples.

Results

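Solute carriers are membrane proteins that move nutrients, metabolites, ions, vitamins and drugs across cell and organelle membranes without splitting ATP. Hepatocytes, the main cells of the liver, use them on the blood side to take up bile salts, drugs and amino acids. The mitochondrial branch of the superfamily exchanges metabolites between cytosol and matrix, and other families load zinc, copper, phosphate or nucleotide sugars into cells and organelles. The genes described here are those whose symbol in the platform annotation starts with Slc and a digit or with Slco. Left out were 9 carriers of sugar, bile salt, fatty acid and iron metabolism (Slc2a2, Slc2a5, Slc10a1, Slc25a1, Slc25a20, Slc27a2, Slc27a5, Slc37a4 and Slc40a1). That rule gave 231 genes on 289 probe sets, out of 10411 genes with a single symbol on the array. Slc4a1ap, an adaptor protein gene, and Slc7a6os, named for its position opposite Slc7a6, fit the naming rule but are not carriers. They were kept in the counts as a class of their own.

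Liver RNA was hybridised to 2 rat oligonucleotide arrays, 1 from the low-fat and 1 from the high-fat diet. The rats belonged to the SD strain, had an age of 4 weeks and were fed for 9 weeks, and both feeds were based on AIN93G, a purified formula in common use for laboratory rodents. The sources used here give neither the fat content of the feeds nor the number of animals behind each RNA. The design sets the livers of the 2 diets against each other. As each diet has 1 array, differences have no replicate check, no test was run, and every value describes these arrays only. Ratios are high-fat over low-fat on the log2 scale, centred on the median of all measured probe sets, and higher or lower gives the sign of that ratio. Folds are taken from these centred ratios unless another scaling is named. Signals are deposited intensities, which depend on the probes, so they are compared between arrays and never between genes.

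The array medians, 15.7 for low-fat and 14.0 for high-fat, served as floors, and a gene was measured when its mean log2 signal reached the mean of both. The labelled tissue was borne out by hepatocyte markers, of which 7 of 8 were on the array and measured, with summed signals of 33524.4 (low-fat) and 33981.6 (high-fat). Their median log2 ratio was 0.13, and 7 of 7 were higher, but 3 to 5 of 7 under the 4 other scalings. Kupffer cell markers were measured in 6 of 6 on the array, 3 higher and 3 lower with a median of -0.02. Their summed signals were 1235.4 and 1074.3. For stellate cells 3 of 6 were measured, all 3 lower, and these 3 had sums of 355.0 and 251.8. Among them Col1a2 had 29.9 and 13.2, the latter below its floor. Both measured endothelial markers of 4 on the array were lower (280.5 and 239.6 in sum), as were both measured cholangiocyte markers of 5 (59.6 and 47.9), while of 4 red cell markers 3 were measured (1521.0 and 1448.9). From pancreas Cela1 was measured (78.8 and 65.6) and from intestine Cdx2 (14.4, below the floor, and 18.3), and 4 of 4 lymphocyte and 3 of 3 kidney markers stayed below the floors. What part such cell types have in the ratios below was not tested, and in whole tissue fewer cells of a type and less RNA per cell cannot be told apart. Before centring, the median log2 ratio of measured probe sets was -0.117. Leaving out the centring therefore lowers every ratio by that amount. Centring on the hybridization controls, at -0.061, also lowers every ratio, but by less. Genes lower by the centred ratio therefore stay lower under both.

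Of the 231 genes, 105 were measured, and 99 of these lay above the floor on both arrays. That is 45.5% of the solute carrier genes, against 57.7% of all genes. The measured genes were split between 51 higher and 54 lower, with a median log2 ratio of -0.02. Over all 6012 measured genes the median was 0, with 3004 higher and 3008 lower. Without centring, which lowers the ratio of every gene on the array, the split was 37 and 68. The split of all genes was not computed without centring. Most differences were small, with 83 of 105 genes within 0.5 of 0 on the log2 scale. The sign of 15 genes turned under at least 1 of 4 other scalings, and all 15 lay within 0.113 of 0.

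By the centred ratio, 2 of the 105 genes (1.9%) differed at least 2-fold, Slc13a4 and Slc31a2, both higher on the high-fat array. Over all measured genes 1.71% passed 2-fold, 0.848% higher and 0.865% lower, so the share among solute carriers was near the background. With each signal below its floor set to the floor, 1 gene, Slc13a4, was left (0.952%), against 1.15% of all genes, 0.582% higher and 0.566% lower. No solute carrier was 2-fold lower. Neither of the pair passed 2-fold without centring, and with quantile normalization or loess Slc35e1 passed as well, for a count of 3. The count was 18 with the floor at the 25th percentile and 1, Slc13a4, at the 75th. No share over all genes was computed under these other scalings and floors, so their counts have no background beside them. At 1.5-fold, a size chosen after the values were seen, there were 15 genes (14.3%), 7 higher and 8 lower, against a background of 9.66% (4.22% higher and 5.44% lower). With signals below a floor set to it there were 14 (13.3%), without Slc12a9, against 8.7% of all genes, 3.73% higher and 4.97% lower. Without centring 4 were higher and 13 lower, and no share over all genes was computed for that setting. Another yardstick was the middle 95% of ratios among probe sets of like signal, taken in 10 equal bins, which left out 10 of the 105 solute carriers (9.52%) and 5.17% of all measured genes.

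**Figure D1:**
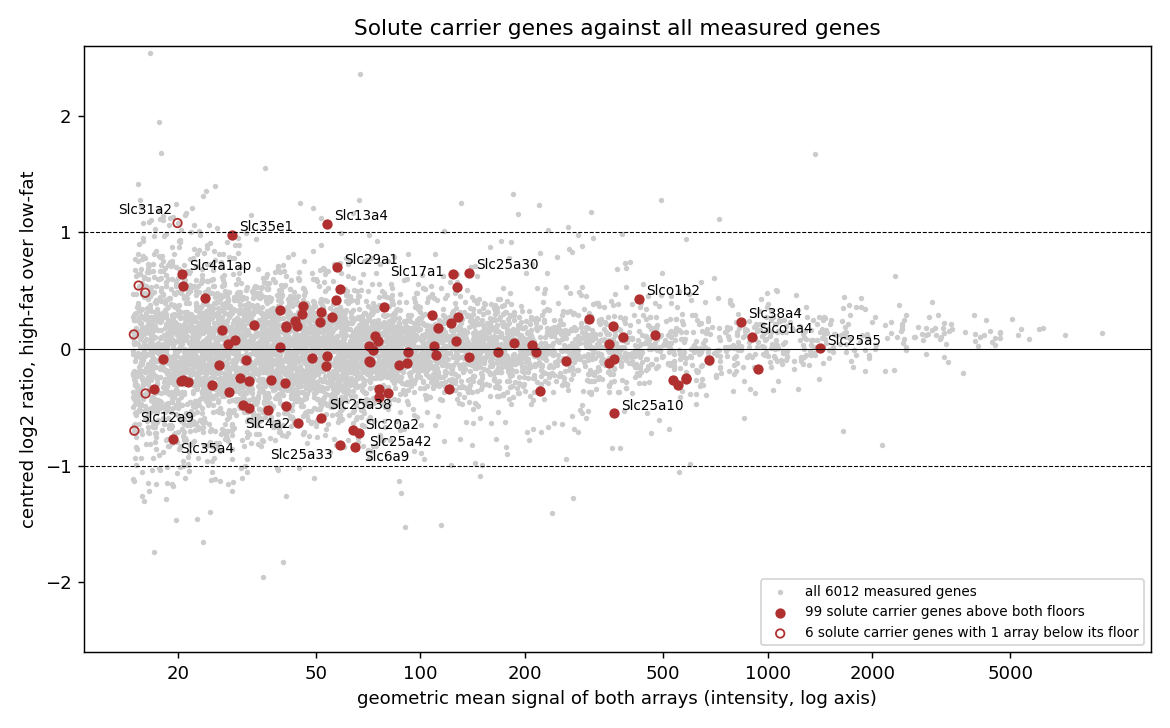
Centred log2 ratio (high-fat over low-fat) against the geometric mean signal of both arrays, for 105 measured solute carrier genes (red, open where 1 array was below its floor) over all 6012 measured genes (grey); dashed lines mark 2-fold. Slc13a4 and Slc31a2 lie above the upper line and no solute carrier lies below the lower line.

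Slc13a4, a sodium-dependent sulfate carrier gene, had signals of 38.6 (low-fat) and 75 (high-fat), 2.11-fold higher after centring. By the centred ratio it was the only solute carrier past 2-fold with both signals above their floors, and its log2 ratio of 1.07 lay outside the middle 95% of probe sets of like signal (-0.64 to 0.65). Over the other scalings and centrings its ratio went down to 0.96. Slc31a2, which encodes a low-affinity copper transporter of internal membranes, had 14.3 and 27.9. Its low-fat signal was below the floor, so the difference is given as at least 1.93-fold higher. Slc35e1, an orphan relative of the nucleotide sugar carriers, had 21.2 and 38.6, just short of the threshold at 1.97-fold, and past it with quantile normalization (1.02 on the log2 scale), loess (1.01) and no floor (1.01). Each of these 3 genes had 1 measured probe set.

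A further 4 genes were at least 1.5-fold higher. Slc29a1, the equilibrative nucleoside transporter ENT1, went from 47.0 to 70.5 (1.63-fold). Slc25a30, a mitochondrial carrier of the uncoupling protein branch, had 114.5 and 166.0 (1.57-fold), and Slc17a1, a sodium-phosphate cotransporter that also carries urate, had 103.4 and 149.1 (1.56-fold). These 3 were also outside the middle 95% of probe sets of like signal. Slc4a1ap, the adaptor protein gene, had 17.1 and 24.7 (1.57-fold) and was inside that range. Without centring Slc29a1 was at 1.5-fold and the other 3 were under it.

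The 8 genes at least 1.5-fold lower by the centred ratio, 7 of them also with signals below a floor set to it, served unlike substrates. Slc6a9, the glycine transporter GlyT1, went from 90.5 to 46.7, a log2 ratio of -0.84, but its second measured probe set lay on the other side of 0 (17.9 and 20.5, 0.31). The remaining probe set of this gene had 21.2 and 6.6, lower on the high-fat array, with a mean below the floors. Slc25a33, a mitochondrial pyrimidine nucleotide carrier, had 81.1 and 42.3 (-0.82). Slc25a42, which carries coenzyme A into mitochondria, had 88.8 and 49.7 (-0.72), and Slc20a2, a sodium-phosphate cotransporter, had 84.7 and 48.2 (-0.70). These were the lower genes outside the middle 95% of probe sets of like signal (-0.64 to 0.65 for all 4). Slc35a4, of the nucleotide sugar family, had 26.4 and 14.3 (-0.77), within the wider range of its dimmer bin. Slc4a2, a chloride-bicarbonate exchanger, had 57.5 and 34.2 (-0.63), and Slc25a38, a mitochondrial glycine carrier needed for heme synthesis, had 66.3 and 40.6 (-0.59). Slc25a38 was the closest to the limit and was under 1.5-fold with quantile normalization and with loess. Slc12a9, of the cation-chloride cotransporter family, had 19.9 and 11.3, the latter under its floor, so it was at least 1.31-fold lower.

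**Figure D2:**
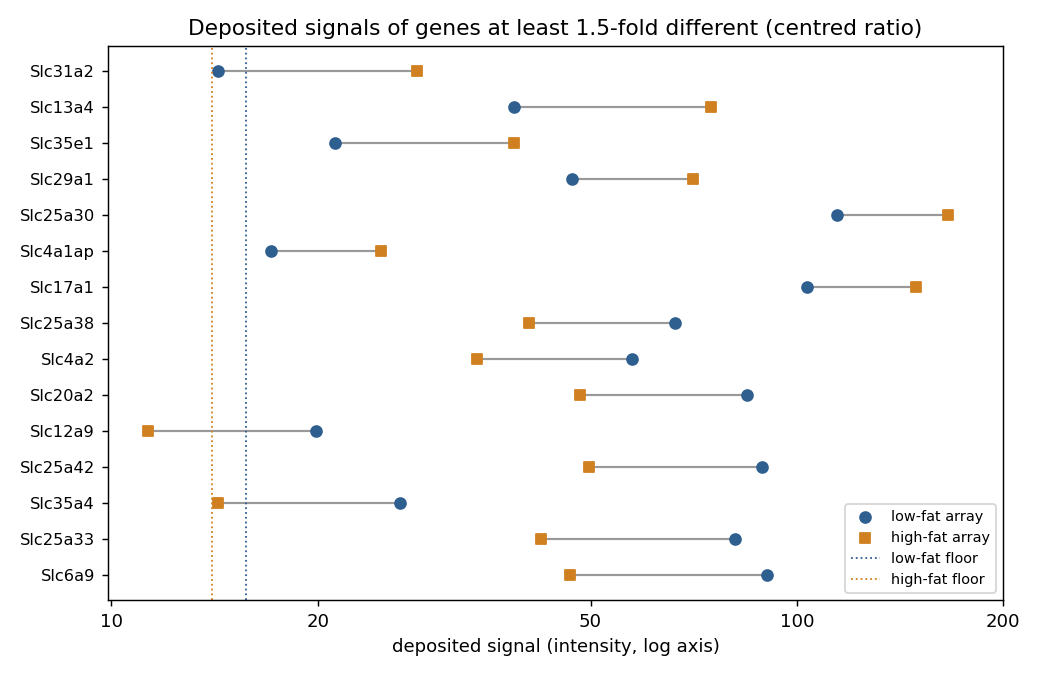
Deposited signal (log axis) on the low-fat array (circles) and the high-fat array (squares) for the 15 genes at least 1.5-fold different by the centred ratio; dotted lines are the floors of 15.7 and 14.0. Only Slc31a2 on the low-fat array and Slc12a9 on the high-fat array lie below their own floor.

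The upstream sequences of 3 genes are shown because they stand for the highest carrier above both floors, the lowest mitochondrial carrier, and a typical hepatocyte uptake carrier. They are the 250 bases before the annotated start (RefSeq, GRCr8), on the gene's strand, and capitals mark 4 motifs on either strand: the E-box CACGTG, the GC box GGGCGG, the TATA box TATAAA and the CCAAT box CCAAT. The arrays do not show which start site was used in these livers.
Slc13a4, chr4:64955987-64956236, minus strand: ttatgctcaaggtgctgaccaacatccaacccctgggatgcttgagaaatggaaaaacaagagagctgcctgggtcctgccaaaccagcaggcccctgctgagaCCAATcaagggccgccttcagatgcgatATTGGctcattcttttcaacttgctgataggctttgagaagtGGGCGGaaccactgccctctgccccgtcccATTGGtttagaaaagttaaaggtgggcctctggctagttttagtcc
Slc25a33, chr5:165502974-165503223, minus strand: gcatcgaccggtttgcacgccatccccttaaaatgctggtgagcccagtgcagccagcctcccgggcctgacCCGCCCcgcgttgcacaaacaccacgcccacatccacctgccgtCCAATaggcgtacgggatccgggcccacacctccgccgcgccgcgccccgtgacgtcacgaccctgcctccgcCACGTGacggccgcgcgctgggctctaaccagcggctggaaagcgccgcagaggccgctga
Slco1b2, chr4:176282334-176282583, plus strand: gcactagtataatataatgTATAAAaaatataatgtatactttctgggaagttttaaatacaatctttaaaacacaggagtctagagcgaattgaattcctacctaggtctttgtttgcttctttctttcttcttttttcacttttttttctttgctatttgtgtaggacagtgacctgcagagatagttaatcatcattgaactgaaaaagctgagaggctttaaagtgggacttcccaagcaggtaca

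These 3 windows differ in base composition, with 52% G and C for Slc13a4, 70% for Slc25a33 and 33.2% for Slco1b2. Slc13a4 holds 3 CCAAT boxes and 1 GC box, Slc25a33 holds 1 E-box, 1 GC box and 1 CCAAT box, and Slco1b2 holds 1 TATA box. Windows were found for 91 of the 105 measured genes. A GC box was in 61.5% of them and in 30.5% of all 33469 windows of the same length, and a CCAAT box was in 40.7% against 34%. The TATA box was in 8.79% against 12.9%. The E-box was in 12 of the 91 (13.2%) and in 5.59% of all windows. Those 12 genes lay on both sides of 0, 6 lower and 6 higher (7 and 5 without centring), from Slc25a33 at -0.82 to Slc31a2 at 1.08. The solute carriers have 1 window per gene, whereas all windows were not reduced to 1 per gene and include those of genes not on the array. No share was computed over the windows of all measured genes, so these shares do not set solute carriers apart. A match is a description of letters only.

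Carriers of organic anions and drugs on the hepatocyte's blood side had log2 ratios within 0.5 of 0 on their brightest probe sets. The second probe set of Slco1b2 went beyond that. The Slco family encodes sodium-independent uptake carriers for bile salts, conjugated steroids and many drugs, and 5 of its 12 genes were measured. Slco1b2, the rodent counterpart of the liver-specific OATP1B carriers, went from 382.0 to 475.7 (0.43), and its second probe set had 157.5 and 237.9 (0.71). Both of its probe sets were thus higher with the high-fat diet. Slco1a1 was at 0.23, from 117.9 to 127.1. Slco1a4, a bile salt and digoxin carrier, had 906.2 and 898.9, and its log2 ratio of 0.11 turned to -0.01 without centring. Slco2a1, the prostaglandin transporter, had 610.2 and 469.1 (-0.26) and was lower on its second probe set too (-0.11). Slco2b1 was at -0.03 on each of its probe sets. The family median of 0.105 became -0.01 without centring.

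In the Slc22 family of organic cation, anion and carnitine carriers 6 of 14 genes were measured and 5 were lower, with a median of -0.20. The same split of 5 and 1 was found under all 4 other scalings. Without centring and with centring on hybridization controls a lower gene cannot turn higher. Slc22a18, an imprinted member with no settled substrate, had 641.1 and 477.3 (-0.31), Slc22a23, an orphan member, 141.9 and 103.1 (-0.34), and Slc22a17, a receptor for lipocalin 2, 42.4 and 32.5 (-0.27). Slc22a5, the carnitine carrier OCTN2, was at -0.14 and Slc22a8, the anion carrier OAT3, at -0.08, from 387.5 to 337.0. Slc22a7, the hepatic anion carrier OAT2, had 471.9 and 473.2 (0.12). None of the 6 reached 1.5-fold. Slc22a6 and Slc22a2, typical of kidney, were below the floors on both arrays, while Slc22a8, also known from kidney, was measured.

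The amino acid class had 7 of 39 genes measured, with 3 higher, 4 lower and a median of -0.02. Set by family, the 39 include unmeasured carriers of other substrates, such as Slc6a2, Slc6a3, Slc6a4 and Slc6a8. The system A and N carriers of the Slc38 family went different ways. Slc38a4, a liver-enriched carrier of alanine and other neutral amino acids, had 807.3 and 874.5 (0.23), and Slc38a2, its more widely expressed relative, had 121.3 and 135.7 (0.28). Slc38a3, which exchanges glutamine, had 661.2 and 514.3 (-0.25). Slc38a10 was at 0.07 and turned to -0.05 without centring. Slc6a13, a carrier of taurine and GABA, was at -0.02, and Slc3a2, the heavy chain shared by several heteromeric exchangers, at -0.05. Slc6a9, described above, was the lowest of the class, and with the median over its 2 measured probe sets it was at -0.26. All 10 cationic amino acid carriers and exchanger light chains of the Slc7 family on the array were below the floors, as was Slc1a5.

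Sugar carriers outside the excluded Slc2a2 and Slc2a5 were mostly below the floors, with 3 of 11 measured. Slc50a1, a sugar efflux carrier, had 52.8 and 58.9 (0.27), and Slc45a4 and Slc45a3, of a sugar-proton symporter family, were at -0.31 and -0.09. The insulin-responsive Slc2a4 and the sodium-glucose carriers Slc5a1 and Slc5a2 had no signal above 5.5. Slc2a1 had 20 and 10.7, a pair whose mean was below the floors. The single measured peptide carrier, Slc15a4 of lysosomes, had 47.0 and 35.4 (-0.29).

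Carriers of monocarboxylates, dicarboxylates and sulfate were measured in 7 of 17 genes. Besides Slc13a4, Slc16a1, the lactate and ketone body carrier MCT1, went from 110.2 to 146.7 (0.53, 1.44-fold). Slc16a7, the related MCT2, had 128.8 and 124.6 (0.07, and -0.05 without centring). Slc16a10, an aromatic amino acid carrier placed here by family, was at 0.24. Slc26a1, a sulfate and oxalate exchanger of hepatocytes, had 359.3 and 341.0 (0.04, and -0.08 without centring). Slc26a8, an anion exchanger known from sperm, had 50.5 and 33.3 (-0.48). Slc16a12, a creatine carrier, was at -0.12, with 0.19 on the other probe set. The class median was 0.07, and -0.05 without centring.

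The mitochondrial carrier family had the most measured members, 19 of 28. By the centred ratio 11 were lower and 8 higher, with a median of -0.10, and the lower genes numbered 12 to 15 under the 4 other scalings. Slc25a10, which exchanges malate and succinate for phosphate, went from 454.4 to 286.1 (-0.55). Slc25a11, the 2-oxoglutarate-malate carrier, had 260.1 and 187.0 (-0.36). With Slc25a33, Slc25a42 and Slc25a38 these were the 5 lowest of the family, each from 1 measured probe set. Slc25a10 was inside the middle 95% of probe sets of like signal (-0.58 to 0.72), near its lower end.

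Besides these 5 and Slc25a30, the mitochondrial carriers had log2 ratios from -0.27 to 0.43. Slc25a15, the ornithine carrier, had 730.2 and 630.3 (-0.10), and Slc25a13, the aspartate-glutamate carrier citrin, had 386.1 and 382.4 (0.10, and -0.01 without centring). Slc25a5, an ATP-ADP translocase, had 1467.7 and 1361.0 (0.01, and -0.11 without centring). Its relative Slc25a4, the heart and muscle form, had 29.6 and 28.8 (0.08, and -0.04 without centring). Slc25a3, the phosphate carrier, had 1035.4 and 850.1 (-0.17), Slc25a22, a glutamate carrier, 378.3 and 321.2 (-0.12), and Slc25a39, the glutathione carrier, 283.1 and 243.5 (-0.10). Slc25a44, a branched-chain amino acid carrier, was at -0.27, and the ATP-magnesium-phosphate carriers Slc25a23 and Slc25a25 were at -0.11 and 0.18. On the higher side, besides Slc25a30, were Slc25a29, a basic amino acid carrier, at 0.43 with a signal of 21.5 and 26.8, and Slc25a48, linked to choline, at 0.30 and at 0.84 on a dimmer probe set. Slc25a17, the peroxisomal member, was at 0.03, and -0.09 without centring.

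**Figure D3:**
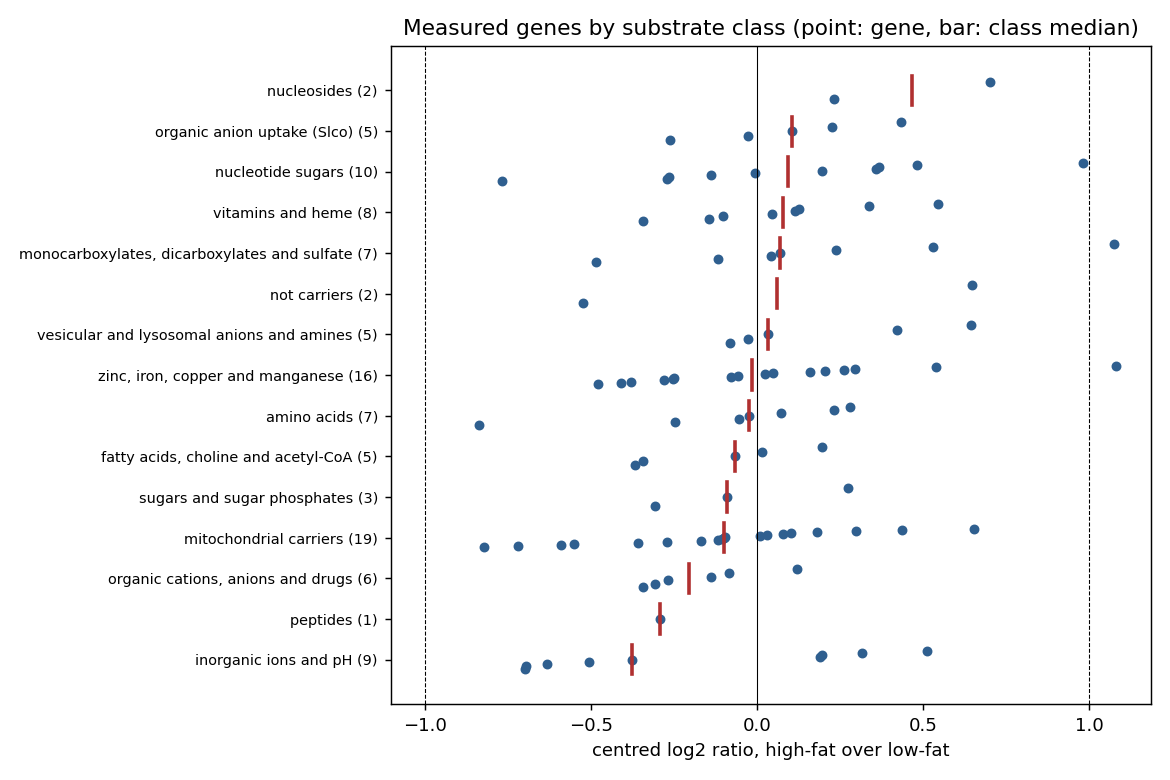
Centred log2 ratios of the 105 measured genes by substrate class, with the number measured in parentheses; each point is 1 gene, red bars are class medians and dashed lines mark 2-fold. Medians run from -0.38 for inorganic ions to 0.47 for nucleosides, and each class with 5 or more genes has members on both sides of 0.

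Nucleoside carriers were measured in 2 of 6 genes, Slc29a1 and the purine-preferring Slc28a2 (49.3 and 53.4, 0.23). Both were higher whichever of the 5 scalings was used, and their median was 0.47, but with the floor at the 25th percentile, which let in dimmer genes, the class median was -0.39. The Slc35 family, which brings nucleotide sugars into the Golgi and endoplasmic reticulum for glycosylation, was split evenly, with 5 of 10 measured genes on each side and a wide range from -0.77 to 0.98. Slc35a2, the UDP-galactose carrier, had 14.2, below the low-fat floor, and 18.3, and so was at least 1.26-fold higher. Slc35c1, for GDP-fucose, and Slc35f5 were at 0.37 and 0.36. Slc35b2, for the sulfate donor PAPS, and Slc35e3 were at -0.26 and -0.27. Slc35a1, the CMP-sialic acid carrier, was at -0.14, while its other probe sets were at 0.19 and 0.30.

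Metal carriers were measured in 16 of 20 genes, 8 higher and 8 lower. Zinc exporters of the Slc30 family had 5 of 6 measured genes lower, with a median of -0.16, and the split was the same under the 4 other scalings. Without centring and with centring on hybridization controls a lower gene cannot turn higher. The lowest were Slc30a3, which had 19.2 and 13.6, the latter under its floor, and was at least 1.26-fold lower, Slc30a1, the exporter of the plasma membrane (24.6 and 18.7, -0.28), and Slc30a4 (34.3 and 26.6, -0.25). Slc30a6 was the member on the other side, at 0.16. Zinc importers of the Slc39 family had 5 of 7 higher, but 3 of 7 without centring or with centring on hybridization controls. Slc39a14, a liver importer of zinc, iron and manganese, had 291.3 and 322.1 (0.26), its close relative Slc39a8 had 101.8 and 115.1 (0.29), and Slc39a13 had 17.9 and 24.0 (0.54). Slc39a4, best known from intestinal zinc uptake, had 91.4 and 63.5 (-0.41), and Slc39a11 37.9 and 25.1 (-0.48). None of these zinc carriers reached 1.5-fold.

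The copper carriers differed in ratio. Slc31a1, the high-affinity copper importer, went from 660.0 to 510.3 (-0.25), with -0.27 and 0.01 on its other probe sets, whereas Slc31a2 was higher, as described above. Slc11a2, the divalent metal transporter DMT1, was at 0.20, but the other probe set, with 22.8 and 16.0, was at -0.39.

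Carriers of inorganic ions and pH were measured in 9 of 35 genes, 4 higher and 5 lower. Set by family, the 35 include the urea carriers Slc14a1 and Slc14a2, which were not measured. The class median, -0.38, depended on the floor, and was 0.18 at the 75th and 0.03 at the 25th percentile. Both Slc20 phosphate carriers were lower in all 5 scalings, Slc20a2 at -0.70 and Slc20a1, with 96.0 and 68.2, at -0.38. Without centring and with centring on hybridization controls they could not have turned higher. The second probe set of Slc20a2 was at -0.19, from 35.4 to 28.6. Slc8b1, a mitochondrial sodium-calcium exchanger, had 39.7 and 25.8 (-0.51). On the higher side were Slc12a7, a potassium-chloride cotransporter, with 51.3 and 67.5 (0.51), the sodium-bicarbonate cotransporter Slc4a4 (48.4 and 55.6, 0.32), the magnesium carrier Slc41a2 (348.4 and 368.2, 0.20) and the cotransporter Slc12a2 (40.1 and 42.2, 0.19).

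Vitamin carriers were measured in 8 of 10 genes, 5 higher and 3 lower, and 3 higher and 5 lower without centring. Slc5a6, for biotin and pantothenate, had 36.5 and 42.5 (0.34). Slc19a1, the reduced folate carrier, had 13.3, below the low-fat floor, and 17.9, and was at least 1.24-fold higher, while Slc46a1, the proton-coupled folate carrier, was at -0.10. The ascorbate carrier Slc23a1 had 74.2 and 74.0 (0.11, and -0.004 without centring). Slc49a4 had 89.1 and 64.8 (-0.34), and Slc48a1, a heme carrier, 58.6 and 48.9 (-0.14). Among lipid-related carriers, Slc27a4, a fatty acid transport protein, had 33.3 and 23.8 (-0.37), and its relative Slc27a1 was at 0.01 and at -0.10 without centring. The choline carriers Slc44a1 and Slc44a2 were at 0.19 and -0.34, and other probe sets of Slc44a1 were at 0.62 and -0.08. Slc33a1, which carries acetyl-CoA, was at -0.07. Slc17a3, like its relative Slc17a1, was placed in the vesicular and lysosomal class by family only, and was higher too (51.3 and 63.3, 0.42). In that class the sialic acid exporter Slc17a5 was at -0.03. Slc66a1, a lysosomal basic amino acid exporter, was at -0.08.

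Of the 105 measured genes, 14 had a second measured probe set, which gives the only repeat measurement within an array. The ratio had the same sign on the 2 brightest probe sets in 10 of the 14 (71.4%), against 56.9% of 696 genes over the whole array, and the SD of the difference was 0.41 against 0.417. Slc6a9 and Slc11a2 lay on opposite sides of 0 and over 0.5 apart. Slc20a2 and Slc25a48 were over 0.5 apart on the same side. Slc16a12, Slc35a1, Slc31a1 and Slc44a1 also had a probe set across 0. The 4 Slco genes with a second probe set, Slco1a4, Slco1b2, Slco2a1 and Slco2b1, had the same sign on both. Probe sets of a gene can detect different transcript ends, and they share the RNA and the array, so they are no replicates of the diet.

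**Figure D4:**
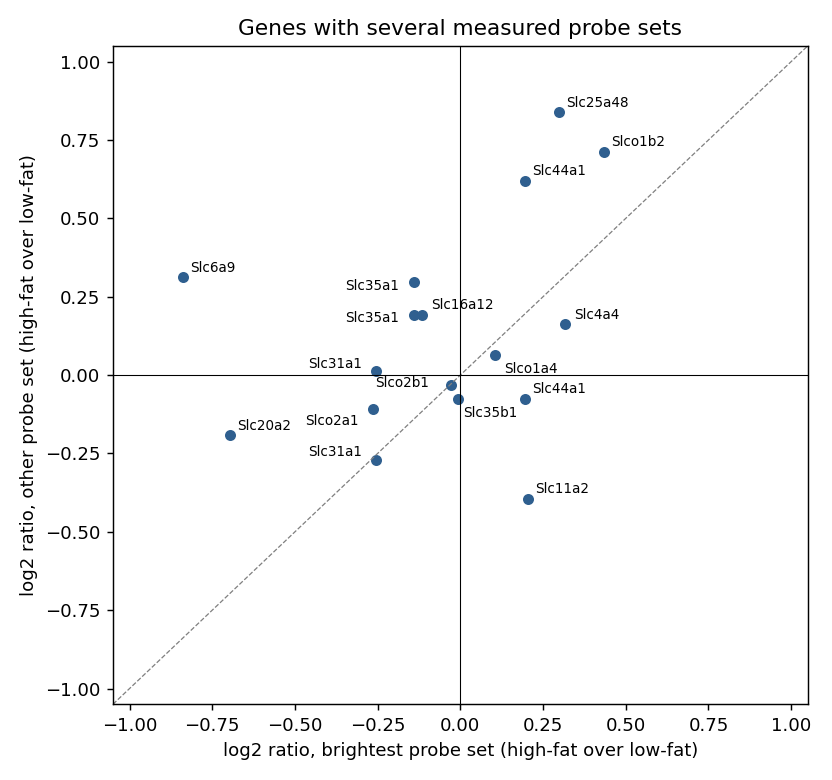
Centred log2 ratio (high-fat over low-fat) of each further measured probe set against that of the brightest probe set of the same gene, for 14 solute carrier genes with 17 further probe sets; the dashed line marks equal values. Slc6a9 at -0.84 and 0.31 is the farthest from the line.

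The 126 genes that were not measured include many carriers known from other organs. The neuronal vesicular carriers Slc17a6, Slc17a7, Slc18a3 and Slc32a1, the renal Slc12a1, Slc12a3 and Slc34a1, and the intestinal Slc15a1 and Slc10a2 had no signal above their floors on either array. Their ratios are not given. A signal at or above the floor on 1 of the arrays was found for 12 of the 126, for example Slc34a2 (3.1 and 20.2) and Slc44a4 (17.8 and 5.2). Slc4a1, the red cell anion exchanger, had 7.2 and 11.7, both below the floors.

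A list of genes that work beside solute carriers had 15 of 18 measured, 8 of them higher (3 to 6 under the 4 other scalings), and their median log2 ratio was 0.02. Bsg, the chaperone of lactate carriers, had 849.4 and 799.1 (0.03), and the sodium pump subunits Atp1b1 and Atp1b3, which maintain the gradient for sodium-coupled carriers, were at 0.08 and 0.09. Without centring these 3 were at -0.09, -0.04 and -0.03. The mitochondrial pyruvate carrier subunits Mpc1 and Mpc2 were at 0.03 and 0.02, and at -0.09 and -0.10 without centring. The porins of the outer mitochondrial membrane, Vdac1, Vdac2 and Vdac3, were at -0.33, -0.34 and -0.12, and Timm9 and Timm10, chaperones that deliver inner membrane carriers, at -0.21 and -0.25. Aqp8, a water channel, had the largest ratio of the list, from 138.2 to 241.4 (0.92), and the glycerol channel Aqp9 was at 0.27, from 451.8 to 503.6.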

How the data were processed

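The deposited table holds 1 linear intensity per probe set and array, and no source used here gives the authors' steps from scan to intensity. Gene symbols came from the platform annotation. All 231 solute carrier symbols were found unchanged by Entrez identifier in the GRCr8 gene table. Of 15866 probe sets left after removing 57 controls, 4 with a 0 were dropped. Log2 ratios had no pseudocount and were centred over 7864 measured probe sets. The brightest probe set stood for a gene, and a fold with 1 array below its floor was given as a bound against that floor. Classes follow gene families, with a few genes placed by substrate.

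With 1 array per diet no test was run, and the number of arrays limits the precision. The members, gene lists and alternatives were chosen with earlier results of these data known. Named genes were those past 2-fold, the 8 highest and 8 lowest above both floors, the 15 with the brightest signal, up to 3 per class with the largest ratio, those with a differing second probe set, and a list of partner genes. Other genes named were picked with their values in view. In 10 alternatives, scaling, floor, pseudocount and choice of probe sets were varied, and in 1 more, added later, signals below a floor were set to it. Ratios within 1e-09 (log2) of a size limit counted as reaching it. The steps were tested on simulated data with the same noise at every signal. In the arrays the robust SD of ratios was 0.487 in the dimmest signal bin and 0.171 in the brightest. The simulation therefore does not show how the steps do with dim genes. Python 3.11.15, numpy 2.4.6, pandas 2.3.3, scipy 1.17.1, statsmodels 0.14.6 and matplotlib 3.10.9 were used.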

Additional observations from a re-analysis of the deposited data

How the results depend on the processing

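The floor set most of the counts. For the alternatives below, shares over all genes were computed only where signals below a floor were set to it. With the floor at the 25th percentile 183 solute carriers were measured and 18 passed 2-fold, 9 higher and 9 lower. At the 75th percentile 63 were measured and 1 passed, 1 higher. With no floor all 231 counted and 44 passed, 23 higher and 21 lower. With signals below a floor set to it, an alternative added after the values were seen, 1 passed, 1 higher. With quantile normalization and with loess 3 passed. No gene passed 2-fold without centring or with a pseudocount of 50 (0 in each). The 1.5-fold count of 15 was 47, 9 and 88 with these floors and 0 with the pseudocount. It was 13 to 17 under the other alternatives, with 12 of the 15 genes shared without centring, and without Slc6a9 and Slc20a2 when probe sets were combined by their median. The class median of inorganic ions was 0.033, 0.183 and 0.045 with the floor at the 25th percentile, the 75th and none, and that of nucleosides was -0.392 at the 25th and -0.06 with none. Monocarboxylates went to 0.559 with no floor and sugars to 0.261 at the 75th percentile. Those changes follow from which dim genes count as measured. Medians of the other classes, and that of all solute carriers (-0.14 to 0.019), moved by less than 0.285, the robust SD of ratios over measured genes. Slc13a4 and Slc31a2, past 2-fold by the centred ratio, kept their sign, but fell to 0.558 and 0.339 with the pseudocount. Some other named genes did change sign, such as Slc25a5 and Slco1a4 without centring and Slc11a2 with the median over probe sets. No paired analysis was possible because each diet has 1 array.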

Other observations

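Mitochondrial Slc25a51, the NAD carrier, is named on 2 probe sets whose annotation gives several gene identifiers, so it entered no count above. Those probe sets had signals of 73.9 and 59.8 on the low-fat array and 70.0 and 52.2 on the high-fat array, with log2 ratios of 0.04 and -0.08.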
